A study of Mus musculus with 12 samples.

Results

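Lipg, which encodes endothelial lipase, stood far higher in the libraries given ionizing radiation with no added label (IR) than in any other group, and was described here together with 8 further genes that handle lipids. These were Lpl, Lipa, Apoe, Abca1, Abcg1, Pparg, Cd36 and Plin2. The rows of the 9 gene names were taken from the 31340 gene rows of each library, and each name stood on 1 row. Lipg was chosen by its high level in the IR group alone, out of 4 groups of which 3 were irradiated, so its levels are a description and carry no test. The other 8 genes were listed by function, to see whether lipid handling moved with Lipg.

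RNA-seq libraries were made from bone marrow cells of wild-type mice, labelled as hematopoietic stem cells (HSCs). The study's methods sort HSCs as Lineage- Sca-1+ c-Kit+ Flt3- CD34- cells and list purchased C57BL/6 mice. The 4 groups, each of 3 libraries, were unirradiated mice (Ctrl), mice given ionizing radiation (IR), and the groups labelled Ab_IR and L_IR, whose treatment labels add Ab or L to IR. The labels do not spell out Ab or L. The model is sublethal total body irradiation, with cells taken 3 days afterwards. An age is not given in the sources used here, nor whether libraries came from separate animals, so p-values measure the spread between these libraries only.

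Lipids reach blood cells mainly inside lipoproteins. Lipases at the cell surface (Lpl, Lipg) cut triglycerides or phospholipids of passing particles, and fatty acids enter through carriers such as Cd36. Lysosomal acid lipase (Lipa) frees cholesterol and fatty acids from particles taken up whole. Surplus fatty acids are stored as triglyceride in droplets coated by perilipins such as Plin2, and surplus cholesterol leaves through Abca1 and Abcg1 to carriers such as apolipoprotein E (Apoe). Pparg, a nuclear receptor for fatty acids, and the oxysterol receptors LXR switch on many of these genes. In marrow, macrophages, endothelium, fat cells and developing granulocytes all use parts of this machinery.

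The values are FPKM, that is, fragments scaled to transcript length and library size. They hold no read counts, and sequencing depth is therefore unknown. Between 11467 and 12167 genes reached 1 FPKM in a library. Ctrl replicate 1 stood apart, with 44.1% of rows at 0 against 24.7% to 27.3% in the others. A second split crossed the groups. Nppa, the gene of a heart atrium hormone, reached 51.2 to 63.9 FPKM in all IR libraries and in replicates 2 and 3 of Ctrl, while the other 7 libraries held 0 to 0.26 FPKM. For several values, the result without these libraries or with the split as a term is given beside them. All IR libraries fall on the Nppa side and all Ab_IR and L_IR libraries on the other. That term thus rests on Ctrl replicate 1 alone, which stands for Ctrl against Ab_IR and L_IR. Markers did not single out HSCs. Of 10 HSC markers, 1 to 5 reached 1 FPKM in a library, whereas all 13 monocyte and neutrophil markers did, with a sum of 6608 to 13955 FPKM. In RNA from mixed cells, fewer cells of a type and less RNA per cell cannot be told apart.

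Lipg (GRCm38, chromosome 18, 74939322 to 74961263, minus strand) was listed at 3.06, 3.18 and 3.79 FPKM in Ctrl. In IR it was listed at 50.58, 49.56 and 48.81 FPKM. The Ab_IR libraries held 2.19, 2.44 and 2.91 FPKM, and the L_IR libraries 1.84, 1.90 and 1.82 FPKM. IR was thus the high group, and no pair of groups overlapped. The mean was 49.7 ± 0.888 FPKM (SD, n = 3) in IR, 3.34 ± 0.391 FPKM in Ctrl, 2.51 ± 0.366 FPKM in Ab_IR and 1.85 ± 0.0416 FPKM in L_IR. The IR mean was 14.9 times that of Ctrl, 19.8 times that of Ab_IR and 26.8 times that of L_IR. Among the rows of a library sorted by level, Lipg stood between places 1108 and 1157 in IR, and between 8611 and 10664 in the other groups. Both groups with an added label thus lay below Ctrl, by 0.31 for Ab_IR and 0.60 for L_IR in the mean of log2(FPKM + 1). Ctrl replicates 2 and 3, which carry Nppa, held 3.18 and 3.79 FPKM of Lipg beside 3.06 FPKM in Ctrl replicate 1, which does not. The part of the Nppa split in the level of Lipg was not tested.

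**Figure D1:**
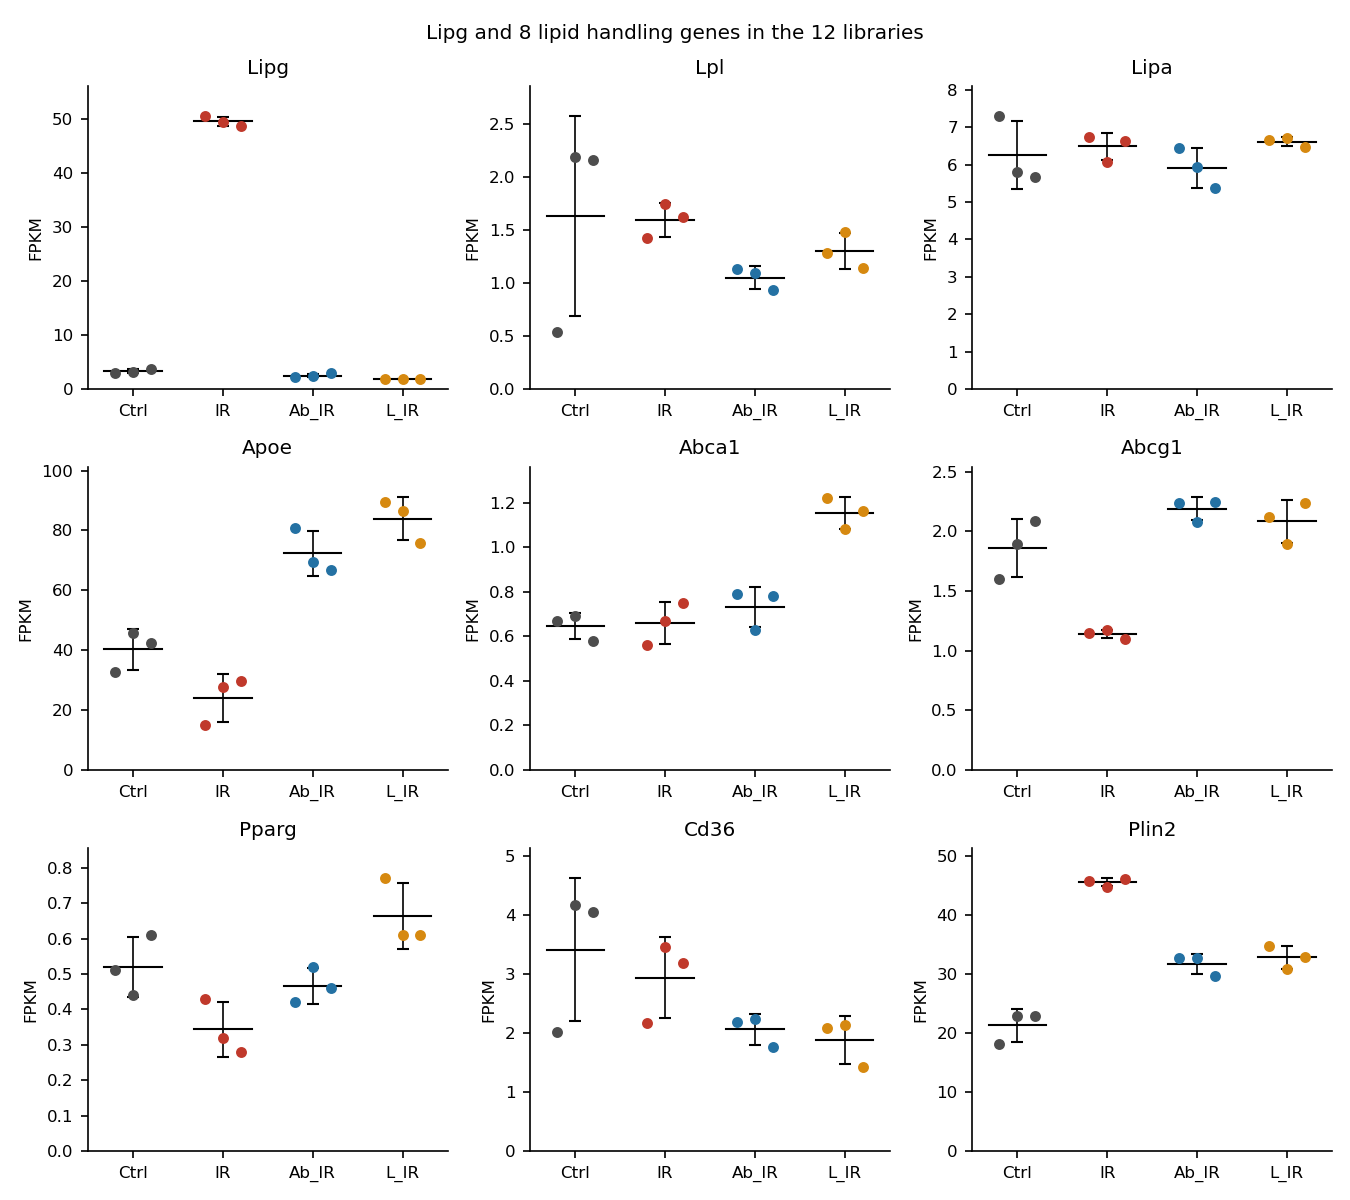
FPKM of Lipg and the 8 other lipid handling genes in 12 libraries, 1 panel per gene with its own linear axis from 0. Points are libraries (replicates 1 to 3 from left to right within a group), horizontal lines are group means and bars are SD (n = 3). Lipg lies at 48.81 to 50.58 FPKM in IR and at no more than 3.79 FPKM elsewhere. Plin2 is the only other gene of the 9 whose IR libraries all lie above every other library, beside 16.1% of all genes.

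The genes whose profile came nearest to that of Lipg were sought among 10900 genes that reached 1 FPKM in 3 or more libraries. Predicted genes, immunoglobulin genes and names on several rows had been left out. Likeness was the root mean square difference in log2(FPKM + 1) over the 12 libraries after each gene was centred on its own mean, so that 0 would be the same profile. Its median over all candidates was 1.72. Il1r2, which encodes the decoy receptor for interleukin-1, was nearest at 0.0855. It was listed at 42.8 ± 1.14 FPKM (SD, n = 3) in IR, 2.92 ± 0.510 in Ctrl, 2.44 ± 0.181 in Ab_IR and 1.55 ± 0.0569 in L_IR. Its order of groups was that of Lipg, and its levels were close too. Then followed Stfa2 (0.340), Cstdc5 (0.370) and Stfa2l1 (0.488), cysteine protease inhibitors of the stefin A kind. These belong to a multigene family whose near-identical copies can share reads, so their single values are uncertain. Il1f9, an interleukin-1 family cytokine, came next at 0.508 and Vcan, the matrix proteoglycan versican, at 0.576. Vcan was listed at 6.75 ± 0.0896 FPKM in IR and at 0.17 to 0.31 FPKM in the other 9 libraries. It thus passed the 1 FPKM filter through IR alone. None of the 8 other lipid handling genes came near, from 1.45 for Plin2 to 2.36 for Apoe. This measure weighs the size of changes as well as their shape. A gene with the shape of Lipg but smaller changes would also score far from 0.

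**Figure D2:**
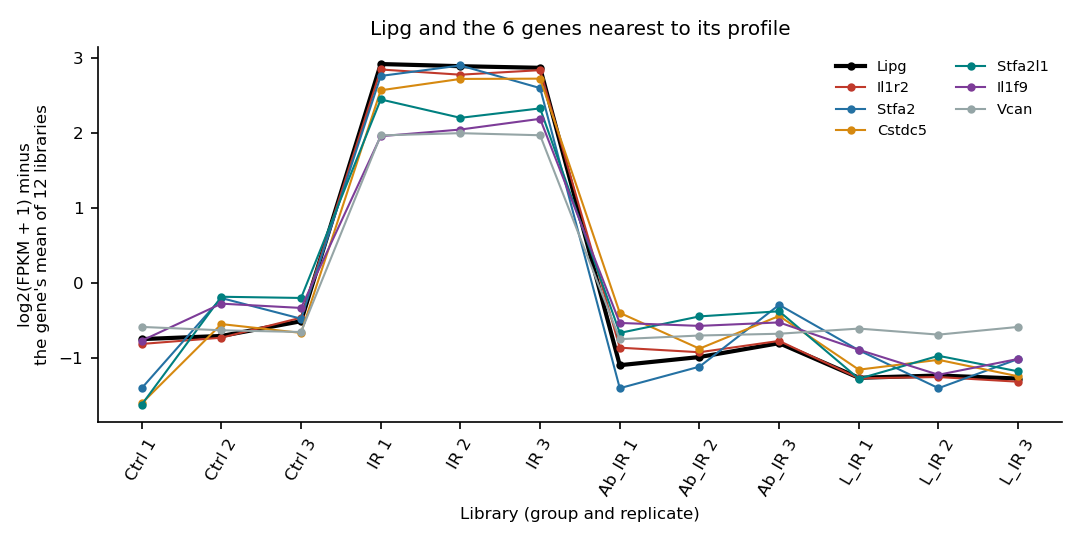
log2(FPKM + 1) of Lipg and the 6 genes nearest to it, each minus its own mean over the 12 libraries (y axis), by library (x axis). All 7 lines peak in the 3 IR libraries, which follows from how the genes were picked. The line of Il1r2 stays closest to Lipg, with a root mean square difference of 0.0855.

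Markers of several cell types moved across the same groups. The monocyte and neutrophil list (13 of 13 genes measured) summed to 8669 to 10174 FPKM in Ctrl, 13671 to 13955 in IR, 9607 to 10036 in Ab_IR and 6608 to 6801 in L_IR. The sum was highest where Lipg was highest and lowest where Lipg was lowest, but a few very abundant genes carry it. All IR libraries lay above all others for 8 of the 13 genes, S100a8 among them, and below all others for 2, Ly6c2 and Ccr2, while 3 did neither. Of all 12699 genes that reached 1 FPKM in at least 3 libraries, 16.1% had all IR libraries above all others and 24.8% had them below. The endothelial list stands for the textbook source of endothelial lipase. Its 12 genes summed to 16.1 to 16.7 FPKM in IR, 26.2 to 28.5 in Ctrl, 26.8 to 27.3 in Ab_IR and 29.8 to 31.2 in L_IR. Mainly Pecam1, Tie1 and Egfl7 make up that sum. All IR libraries lay below all others for 5 of the 12 genes and above for none, with 7 in neither class, beside those same 24.8% and 16.1% of all genes. Of its defining markers Cdh5 stayed at or below 1.26 FPKM and Emcn at or below 0.28 FPKM. The part of either cell type in the level of Lipg was not tested.

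Against this pattern the 8 other genes were compared between groups with limma on log2(FPKM + 1), fitted over all genes that reached 1 FPKM in 3 or more of the libraries compared. The fold changes given refer to FPKM + 1 and so come out too small for low genes. A gene was called at an adjusted p under 0.05 together with a log2 fold change above 1 in either direction. Of the 8, 6 or 7 passed the filter, depending on the comparison. Pparg passed in none of the 6 comparisons. Abca1 passed only in those with L_IR, through the L_IR libraries themselves, so it is left out of the counts below and no p is given for it, which leaves 6 genes in each comparison. In IR against Ctrl, 1 of 6 was called (Plin2, higher), where 7.6% of all genes tested were. At the adjusted p alone 2 of 6 passed, where 43.1% of all genes did. Apoe was the only one called in Ab_IR against IR (1 of 6, beside 7.57% of all genes) and in L_IR against IR (1 of 6, beside 6.22%). The adjusted p alone passed 4 of 6 in each, where 68.7% and 66.8% of all genes passed, so these shares are near the background.

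Plin2 coats lipid droplets and rises in cells that store neutral lipid. Its row (GRCm38, chromosome 4, 86648386 to 86670060, minus strand) gave 18.11, 22.97 and 22.86 FPKM in Ctrl and 45.74, 44.82 and 46.18 FPKM in IR. In Ab_IR it gave 32.81, 32.72 and 29.72 FPKM, and in L_IR 34.86, 30.90 and 32.88 FPKM. The IR libraries lay above all others, both groups with an added label lay between IR and Ctrl, and these overlapped each other. The mean rose from 21.3 ± 2.77 FPKM in Ctrl to 45.6 ± 0.694 FPKM in IR. Its log2 fold change was 1.07 (SE 0.0998, limma adjusted p 4.26e-04). Without Ctrl replicate 1, which was the lowest library, the change was 0.96 (adjusted p 1.34e-05) and fell short of the fold change threshold. Against IR it was lower by 0.51 on the log2 scale in Ab_IR (adjusted p 5.35e-05) and by 0.46 in L_IR (adjusted p 9.63e-05), both short of that threshold. With the Nppa split as a term these values were -0.19 (adjusted p 0.0961) and -0.14 (adjusted p 0.22). Against Ctrl it was still higher in L_IR, by 0.61 (adjusted p 0.0198), while Ab_IR gave 0.56 (adjusted p 0.0622). Without Ctrl replicate 1 both passed, at 0.50 (adjusted p 0.00282) and 0.45 (adjusted p 0.0115). With the split as a term, where Ctrl replicate 1 alone stands for Ctrl, they were 0.82 and 0.78. The difference between Ab_IR and L_IR was -0.05 (95% confidence interval -0.19 to 0.09).

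**Figure D3:**
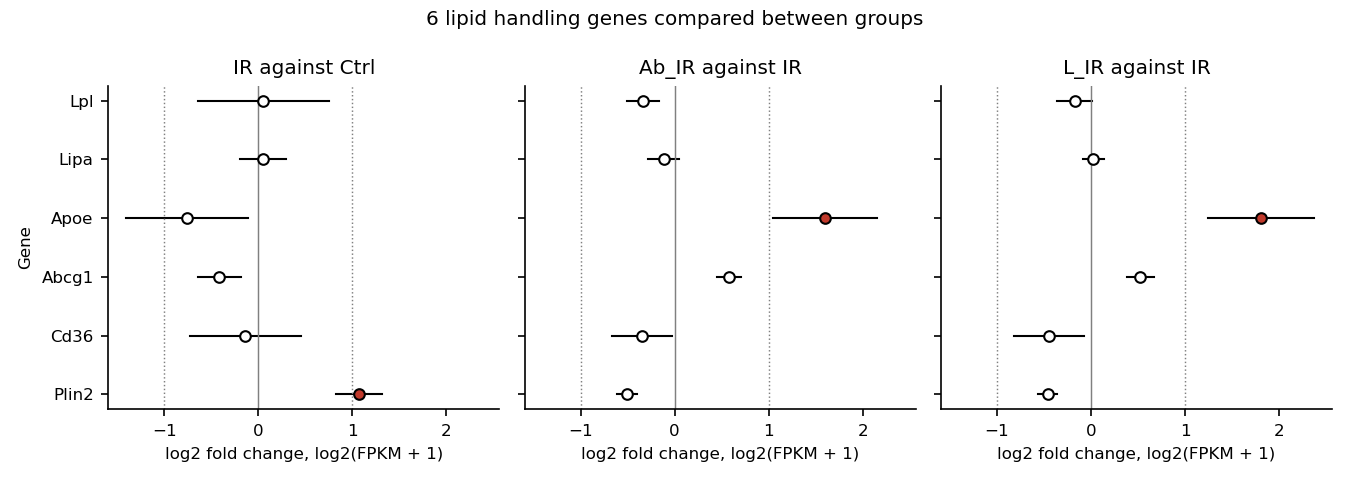
log2 fold change of the 6 genes compared (x axis, on the log2(FPKM + 1) scale) in 3 comparisons, with 95% confidence intervals from limma (n = 3 per group). Abca1 is not drawn, as it passed the filter on low values through L_IR alone. Filled points were called and dotted lines mark a log2 fold change of 1 in either direction. Plin2 is called in IR against Ctrl at 1.07, and Apoe in Ab_IR against IR at 1.60 and in L_IR against IR at 1.81.

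Apoe, the lipoprotein ligand that macrophages also secrete to carry off cholesterol, showed a different order. Its row (GRCm38, chromosome 7, 19696109 to 19699188, minus strand) gave 32.74, 45.76 and 42.53 FPKM in Ctrl. In IR it gave 14.98, 27.79 and 29.78 FPKM, in Ab_IR 80.91, 69.58 and 66.66 FPKM, and in L_IR 89.48, 86.49 and 75.96 FPKM. IR was the lowest group and both groups with an added label lay above every Ctrl and IR library. From IR to Ab_IR the mean rose from 24.2 ± 8.03 to 72.4 ± 7.53 FPKM (log2 fold change 1.60, SE 0.235, limma adjusted p 6.74e-04). From IR to L_IR it rose to 84.0 ± 7.10 FPKM (1.81, SE 0.237, adjusted p 4.79e-04). IR replicate 1 was the lowest library, and without it both calls were kept, at 1.30 (adjusted p 5.27e-05) and 1.51 (adjusted p 2.22e-05). The difference between IR and Ctrl was -0.76 (adjusted p 0.0612) and did not pass, although the groups did not overlap. It passed the adjusted p without Ctrl replicate 1, at -0.90 (adjusted p 0.0303, and 0.00527 with the Nppa split as a term), and did not without IR replicate 1, at -0.46 (adjusted p 0.0815).

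Apoe was also the only one of the 8 called in L_IR against Ctrl. It was 1 of 6 genes there, changed by 1.05 on the log2 scale (SE 0.136, limma adjusted p 0.00605), where 2.65% of all genes were called. Without Ctrl replicate 1 the change was 0.91 (adjusted p 7e-04), just under the fold change threshold. At the adjusted p alone 2 of 6 passed in that comparison, Apoe and Plin2, against 8.84% of all genes. In Ab_IR against Ctrl none of 6 was called (0.923% of all genes) and only Apoe passed the adjusted p, at 0.84 (adjusted p 0.0384), where 2.1% of all genes passed. With the Nppa split as a term, where Ctrl replicate 1 alone stands for Ctrl, that change was 1.12. Without that library it was 0.70. The macrophage list, a known source of Apoe, summed to 83.7 to 90.9 FPKM in IR, 116 to 120 in Ctrl, 125 to 136 in Ab_IR and 120 to 132 in L_IR. All IR libraries lay below all others for 4 of its 14 genes, Csf1r among them, and above for 1, Mrc1, while 9 did neither, beside 24.8% below and 16.1% above among all genes. The part of these cells in the change of Apoe was not tested.

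The cholesterol exporters Abca1 and Abcg1 stood at low levels. Abcg1, which loads cholesterol onto high-density lipoprotein, was listed at 1.60, 1.89 and 2.09 FPKM in Ctrl, 1.15, 1.17 and 1.10 FPKM in IR, 2.24, 2.08 and 2.25 FPKM in Ab_IR and 2.12, 1.89 and 2.24 FPKM in L_IR. The IR libraries lay below all 9 others, the reverse of Lipg, as they did for 24.8% of all genes. It was lower in IR than in Ctrl by 0.41 on the log2 scale (SE 0.0952, limma adjusted p 0.0140, and 0.0577 without IR replicate 1). Ab_IR lay above IR by 0.58 (adjusted p 6.74e-05) and L_IR by 0.53 (adjusted p 2.49e-04). Of the 8 genes, it and Plin2 passed the adjusted p in IR against Ctrl, and neither of its differences from Ctrl passed in Ab_IR (0.16, adjusted p 0.359) or L_IR (0.11, adjusted p 0.539). With the Nppa split as a term, where Ctrl replicate 1 alone stands for Ctrl, these differences from Ctrl were 0.29 and 0.24. Without that library they were 0.09 and 0.04.

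Abca1, which hands cholesterol and phospholipid to lipid-free apolipoprotein, behaved otherwise. It was listed at 0.67, 0.69 and 0.58 FPKM in Ctrl, 0.56, 0.67 and 0.75 FPKM in IR and 0.79, 0.63 and 0.78 FPKM in Ab_IR, and those groups overlapped. L_IR stood above all 9 other libraries, at 1.22, 1.08 and 1.16 FPKM. In mean log2(FPKM + 1), L_IR lay above IR by 0.38, above Ctrl by 0.39, and Ab_IR lay at -0.31 relative to L_IR. As no other library reached 1 FPKM, the gene entered the fits only because it was high in L_IR, and these differences carry no test. None of the other 6 genes passed the adjusted p between Ab_IR and L_IR, where 38% of all genes passed, and none was called, beside 0.533% of all genes.

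The promoters of Abca1 and Plin2 are shown because Abca1 is a textbook target of LXR and Plin2 one of the PPAR receptors, and because these genes differed between groups. RefSeq promoters (GRCm38.p6, from 250 bases before to 50 after a start) were matched for 6 of the 9 genes, at 10 starts. Lipg, Lpl and Abcg1 had none matched. Capitals mark the direct repeat GGTNA, 5 bases of any kind, GGTNA in Abca1 and the half-site AGGTCA in Plin2, both found on the strand opposite to the one printed, which is the gene's own.
Abca1 promoter (chr4:53159846-53160145, minus strand): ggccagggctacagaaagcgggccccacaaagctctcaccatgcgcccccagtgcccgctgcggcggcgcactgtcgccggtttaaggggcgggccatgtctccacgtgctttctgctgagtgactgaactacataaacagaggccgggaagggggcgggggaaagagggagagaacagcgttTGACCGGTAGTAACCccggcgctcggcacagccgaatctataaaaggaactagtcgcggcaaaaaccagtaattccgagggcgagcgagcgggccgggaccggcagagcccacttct
Plin2 promoter (chr4:86670010-86670309, minus strand): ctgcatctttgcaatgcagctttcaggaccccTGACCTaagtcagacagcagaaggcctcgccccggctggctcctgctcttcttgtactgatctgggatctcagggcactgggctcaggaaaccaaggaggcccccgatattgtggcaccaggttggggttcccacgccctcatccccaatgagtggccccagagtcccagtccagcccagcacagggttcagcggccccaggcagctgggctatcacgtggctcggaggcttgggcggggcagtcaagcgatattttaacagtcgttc
The repeat lay 67 to 53 bases before the start of Abca1 and was held by 0.718% of the 32851 promoters searched on both strands, but by no other promoter of the 6 genes. The half-site lay 218 to 213 bases before the start of Plin2. It was also held by the Cd36 promoter and by 2 of the Pparg promoters, and by 16.3% of all promoters. A match of letters is a description and not evidence of binding. Of the levels above, those of Abca1 were highest in L_IR and those of Plin2 in IR.

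The other surface lipase and the fatty acid carrier had higher medians in the libraries with Nppa, but the ranges on the 2 sides overlapped. Lpl, the lipase of triglyceride-rich lipoproteins, was listed at 0.54, 2.18 and 2.16 FPKM in Ctrl and at 1.42, 1.74 and 1.62 FPKM in IR. It stood at 1.13, 1.09 and 0.93 FPKM in Ab_IR and at 1.28, 1.48 and 1.14 FPKM in L_IR. Ctrl replicate 1, without Nppa, was the lowest of the 12 libraries, and the remaining Ctrl libraries, with Nppa, were the highest. Over the 5 libraries with Nppa, Lpl ranged from 1.42 to 2.18 FPKM, and over the 7 without from 0.54 to 1.48 FPKM. IR and Ctrl differed by 0.06 (limma adjusted p 0.895), and without Ctrl replicate 1 by -0.29 (adjusted p 0.0202). Ab_IR lay below IR by 0.34 (adjusted p 0.00446), but with the split as a term the sign turned, to 0.70 (adjusted p 9.83e-04). L_IR and IR differed by -0.17 (adjusted p 0.0873), which turned likewise, to 0.87 (adjusted p 3.29e-04). That term rests on Ctrl replicate 1 alone. Against Ctrl, Ab_IR differed by -0.28 (adjusted p 0.555) and L_IR by -0.12 (adjusted p 0.834). Without Ctrl replicate 1 they passed, at -0.63 (adjusted p 0.00792) and -0.47 (adjusted p 0.0158). With the split as a term, where that library alone stands for Ctrl, they had the other sign, at 0.41 and 0.58.

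Cd36, which takes up fatty acids and oxidized lipoproteins, was listed at 2.01, 4.16 and 4.05 FPKM in Ctrl and 2.16, 3.46 and 3.19 FPKM in IR. In Ab_IR it was listed at 2.19, 2.24 and 1.76 FPKM and in L_IR at 2.09, 2.14 and 1.42 FPKM. Libraries with Nppa held 2.16 to 4.16 FPKM and those without 1.42 to 2.24 FPKM. L_IR lay below IR by 0.44 on the log2 scale (limma adjusted p 0.0392), a difference that turned to 0.32 (adjusted p 0.295) with the split as a term. IR and Ctrl (-0.14, adjusted p 0.683) did not differ past the threshold, but did with the split as a term (-0.39, adjusted p 0.0443). Ab_IR and IR (-0.35, adjusted p 0.0513) did so without IR replicate 1 (-0.50, adjusted p 0.0031), while the split as a term turned the sign (0.41, adjusted p 0.168). Without Ctrl replicate 1, Cd36 differed from Ctrl by -0.74 for Ab_IR (adjusted p 0.0058) and by -0.83 for L_IR (adjusted p 0.00673), where all libraries gave -0.49 (adjusted p 0.257) and -0.58 (adjusted p 0.188). With the split as a term, where Ctrl replicate 1 alone stands for Ctrl, these differences were 0.022 and -0.072. The heart muscle list, 14 genes, summed to 129.9 to 165 FPKM in the 5 libraries and to 1.64 to 2.26 FPKM in the other 7. Between IR and either Ab_IR or L_IR this split and the groups cannot be told apart, except through Ctrl replicate 1.

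Lipa and Pparg completed the 9. Lipa was the steadiest of them, at 7.29, 5.80 and 5.67 FPKM in Ctrl, 6.75, 6.06 and 6.64 in IR, 6.44, 5.93 and 5.37 in Ab_IR and 6.67, 6.70 and 6.47 in L_IR. Its groups overlapped in IR against Ctrl, where the log2 difference was 0.05 (95% confidence interval -0.20 to 0.30). Across the 6 comparisons its differences lay between -0.14 and 0.08, and none passed the adjusted p. With the Nppa split as a term, 3 of them were -0.42 (Ab_IR against IR), -0.26 (Ab_IR against Ctrl) and -0.27 (L_IR against IR). This term rests on Ctrl replicate 1 alone. Pparg was listed at 0.51, 0.44 and 0.61 FPKM in Ctrl, 0.43, 0.32 and 0.28 in IR, 0.42, 0.52 and 0.46 in Ab_IR and 0.77, 0.61 and 0.61 in L_IR. It stayed under 1 FPKM in all 12 libraries, so no test was made, and the L_IR libraries lay at or above all others. Fat cell genes stayed near 0 with it. Plin1, Lep, Cidec and Adipoq reached at most 0.33 FPKM in any library.

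The wider pathways were read from 6 lists with 117 genes, of which 110 were in the files. In IR against Ctrl 80 were tested and 5 called, 3 higher and 2 lower, or 6.25% beside 7.6% of all genes. In Ab_IR against IR it was 11 of 81 (4 higher, 7 lower, 13.6% beside 7.57%), and in L_IR against IR 9 of 83 (3 higher, 6 lower, 10.8% beside 6.22%). In Ab_IR against Ctrl none of 77 was called (0.923% of all genes), in L_IR against Ctrl 2 of 81 (2.47% beside 2.65%), and in Ab_IR against L_IR none of 80 (0.533% of all genes). Genes that passed the filter through a single group are among these counts, so they are descriptions.

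In the lipid droplet list several genes were highest or lowest in IR. Of all 12699 genes that reached 1 FPKM in at least 3 libraries, 16.1% had all IR libraries above all others and 24.8% below. Of 16 droplet genes tested, 2 were called higher and 1 lower in IR than in Ctrl, beside 7.6% of all genes called, and the median over them was -0.07, beside -0.05 over all genes tested. Dgat2, which makes the final step of triglyceride synthesis, was listed at 11.30, 11.44 and 10.54 FPKM in Ctrl and at 62.79, 61.19 and 62.46 FPKM in IR. In Ab_IR and L_IR it was back at 8.85 to 11.35 FPKM, a profile of high IR like that of Lipg. It rose by 2.39 in IR (SE 0.0581, limma adjusted p 5.26e-06) and was lower than in IR by 2.43 in Ab_IR (adjusted p 5.03e-08) and by 2.62 in L_IR (adjusted p 3.1e-08). Abhd5, the activator of the droplet lipase, stood at 20.66 to 21.03 FPKM in IR and 6.69 to 10.62 FPKM elsewhere, with a rise of 1.03 in IR (adjusted p 2.12e-04). Under scaling by the median log2 ratio that rise was 0.98, and 0.96 without Ctrl replicate 3, both just short of the fold change threshold.

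Plin3, a second perilipin, stood at 35.54 to 37.24 FPKM in IR and 13.60 to 21.56 FPKM elsewhere. Its difference from Ctrl lay at the fold change threshold (0.999, adjusted p 0.00135, not called), and without Ctrl replicate 1 it was 1.13 (adjusted p 3.03e-05) and called. Plin3 was called lower in Ab_IR (by 1.23 on the log2 scale) and in L_IR (by 1.32). Mgll, the monoacylglycerol lipase that ends triglyceride breakdown, took the opposite course. It was listed at 7.94, 7.10 and 8.0 FPKM in Ctrl, 2.12, 2.18 and 2.25 FPKM in IR, 6.80, 8.04 and 7.29 FPKM in Ab_IR and 5.23, 5.21 and 5.22 FPKM in L_IR. The change was -1.45 in IR against Ctrl (adjusted p 4.55e-05) and 1.39 in Ab_IR against IR (adjusted p 1.95e-06), while in L_IR against IR 0.97 (adjusted p 1.89e-06) was short of the call, which a pseudocount of 0.1 gave (1.22). Pnpla2, the main droplet triglyceride lipase, lay between 26.11 and 32.75 FPKM in all libraries.

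**Figure D4:**
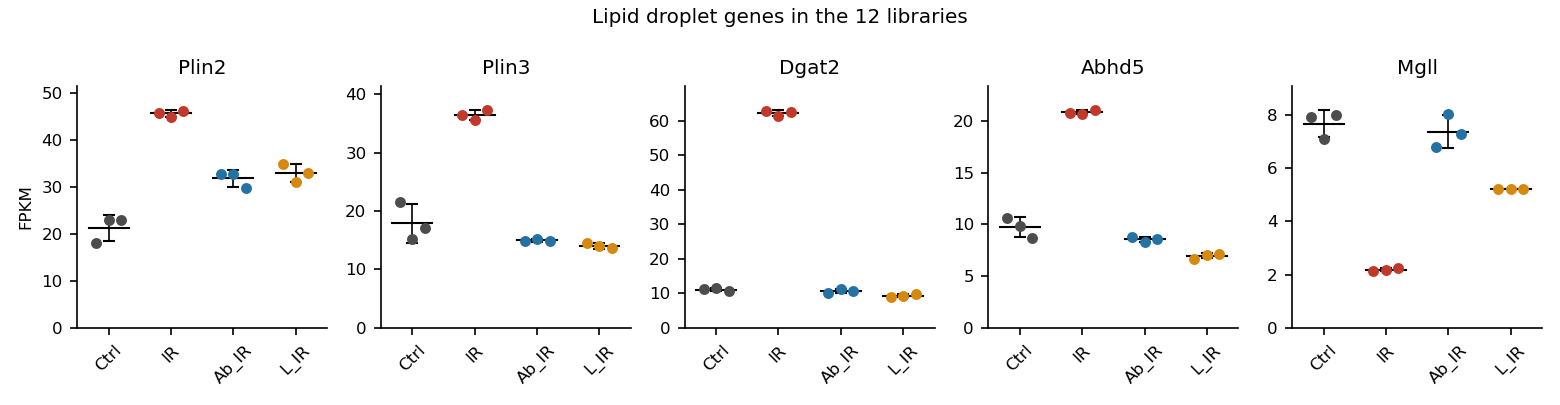
FPKM of Plin2 and 4 genes of the lipid droplet list in 12 libraries, 1 panel per gene with its own linear axis from 0. Points are libraries, horizontal lines group means and bars SD (n = 3). Plin2, Plin3, Dgat2 and Abhd5 are highest in all 3 IR libraries and Mgll is lowest there, at 2.12 to 2.25 FPKM. Among all genes 16.1% have the IR libraries above all others and 24.8% below. The 4 list genes were picked among called genes.

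In the cholesterol efflux and LXR list, 13 genes were tested, and 1 was called lower and none higher in IR than in Ctrl, beside 7.6% of all genes. Its median was -0.38, beside -0.05 over all genes. At the adjusted p alone 7 were lower and 1 higher, where 43.1% of all genes passed. Abcg4, a sterol exporter of the Abcg1 family, was listed at 11.07, 8.15 and 10.51 FPKM in Ctrl and 1.60, 1.85 and 1.91 FPKM in IR, and lay between 8.06 and 9.63 FPKM in Ab_IR and L_IR. It was lower in IR by 1.96 (SE 0.121, limma adjusted p 8.83e-05) and rose against IR by 1.88 in Ab_IR and 1.75 in L_IR. Arl4c, a small GTPase gene induced by LXR, was at 1.39 to 1.64 FPKM in IR and 3.56 to 5.17 FPKM elsewhere. It was called in Ab_IR (1.18) and L_IR (1.25) against IR, and its difference between IR and Ctrl of -0.95 (adjusted p 3.52e-04) was short of the fold change, though not with a pseudocount of 0.1 (-1.30) or, narrowly, under scaling by the median log2 ratio. Other genes of the list went otherwise. Scarb1, the receptor of high-density lipoprotein, was listed at 14.94 to 15.74 FPKM in IR and 12.75 to 14.55 FPKM elsewhere, and the LXR gene Nr1h3 at 1.48 to 1.67 FPKM in IR and 0.65 to 1.43 FPKM in the other groups.

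Of the extracellular lipases and their regulators, 16 of 22 were in the files and 6 passed the filter. Lipc, the hepatic relative of Lipg and Lpl, was listed at no more than 0.45 FPKM, and Gpihbp1, the endothelial anchor of Lpl, at no more than 0.19 FPKM. None of the 6 was called in IR against Ctrl. Pltp, which moves phospholipid between lipoproteins, was listed at 0.65, 1.91 and 1.02 FPKM in Ctrl and 0.59, 1.42 and 1.49 FPKM in IR. It was higher in Ab_IR, at 5.07, 3.17 and 3.62 FPKM, and in L_IR, at 5.53, 5.15 and 4.94 FPKM. The rise over IR was 1.20 in Ab_IR and 1.55 in L_IR, both called, and over Ctrl it was called in L_IR only (1.54). Only in Ab_IR and L_IR did all libraries reach 1 FPKM. Pltp thus passed the filter there only with the help of the higher group, and no p is given for these rises. In Ab_IR the value against Ctrl was 1.20 and not called, and without IR replicate 1 the rise in Ab_IR over IR was 0.99, just short of the threshold. Like Apoe, Pltp was highest in Ab_IR and L_IR, but its IR and Ctrl libraries overlapped (-0.006, limma adjusted p 0.989).

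Among the receptors for lipoproteins and modified lipids, 7 of 12 were tested in IR against Ctrl and 1 was called, beside 7.6% of all genes. Sorl1, a sorting receptor that binds Apoe and Lpl, was listed at 28.47 to 29.10 FPKM in IR and 9.72 to 13.95 FPKM elsewhere. It rose by 1.22 in IR (limma adjusted p 4.46e-04), and was lower than in IR by 1.32 in Ab_IR and by 1.05 in L_IR. Its relative Sort1 was called lower in Ab_IR against IR, by 1.10, and with the split as a term also in L_IR against IR (-1.28) and higher in IR than in Ctrl (1.01, the same without Ctrl replicate 1). It stood at 50.35 to 50.92 FPKM in IR and 22.12 to 33.19 FPKM elsewhere. Msr1, a macrophage scavenger receptor, was called in L_IR against Ctrl only, at a difference of 1.04. It stood at 1.26 to 2.38 FPKM in L_IR and 0.07 to 0.48 FPKM in Ctrl, so it passed the filter only through L_IR and no p is given. It is named outside the rule for named genes, after its value was seen, to complete that count of 2 with Pltp.

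Of fatty acid uptake genes and PPAR targets, 23 of 28 were tested in IR against Ctrl and none was called, with 9 at the adjusted p alone, where 43.1% of all genes passed. Fabp3 and Pdk4, both abundant in heart muscle, were called lower in Ab_IR and L_IR against IR, but passed the filter there only through the IR libraries, and both followed the Nppa split. Fabp3 stood at 0 FPKM in Ctrl replicate 1, at 5.07 to 6.39 FPKM in the 5 libraries with Nppa and at no more than 0.70 FPKM in the other 6. Pdk4 was listed at 2.83 to 4.01 FPKM in those 5 and at no more than 0.05 FPKM in the rest. Their log2 differences from IR to Ab_IR, given without a p for that reason, were -2.55 and -2.09. With the split as a term they were 0.22 and 0.05.

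**Figure D5:**
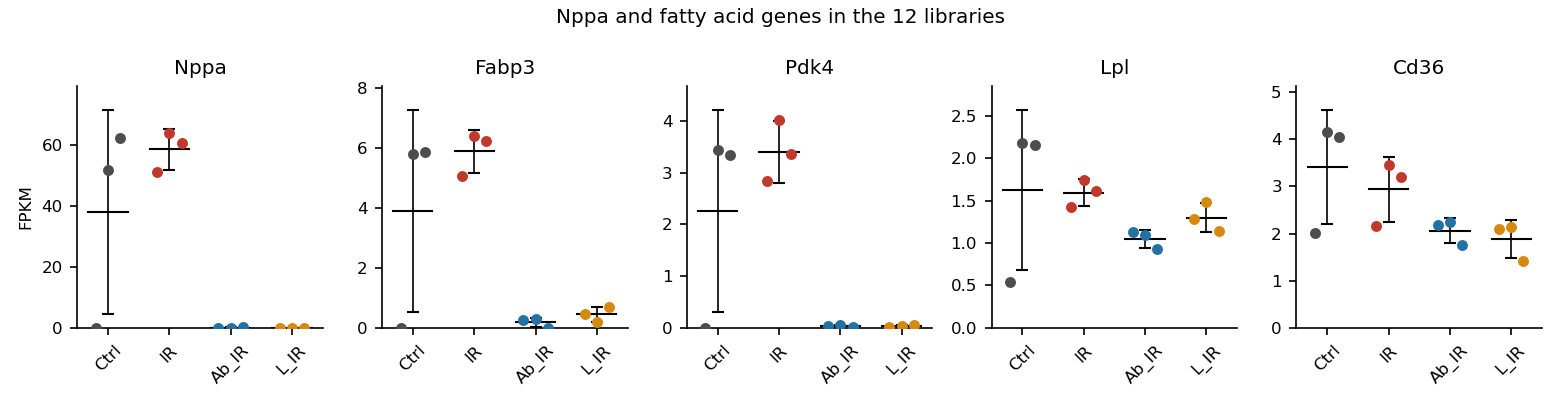
FPKM of Nppa, Fabp3, Pdk4, Lpl and Cd36 in 12 libraries, 1 panel per gene with its own linear axis from 0. Points are libraries (replicates 1 to 3 from left to right), horizontal lines group means and bars SD (n = 3), some of which reach below 0 and are cut by the axis. Ctrl replicate 1 lies with the Ab_IR and L_IR libraries for Nppa, Fabp3 and Pdk4, at 0 FPKM, and is the lowest library for Lpl, at 0.54 FPKM.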

How the data were processed

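RNA from sorted bone marrow cells was sequenced in 12 libraries. The methods of the study name fastp for trimming and RSEM for quantification by the authors, while the submitters' processing notes name HISAT2 and StringTie on GRCm38 (mm10). Which tool the authors used for the deposited FPKM values is not given in the sources used here. Values have 2 decimals, the smallest above 0 is 0.01, and no whole reads could be recovered, so depth is unknown. FPKM times merged exon length in kb (GENCODE M21) summed to 915903 to 947165 per library, close to the fixed sum that FPKM gives. Of 31272 gene names, 62 stand on several rows, but none of the 9 members.

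Since FPKM are not counts, limma 3.58.1 in R 4.3.3 (eBayes, trend) was run on log2(FPKM + 1) for each pair of groups, in place of the study's count test, with its thresholds (adjusted p under 0.05 by Benjamini-Hochberg over all genes tested, fold change over 2). Low genes were removed below 1 FPKM in at least 3 libraries. The fit was tested on simulated data with 200 changed genes per comparison. The 9 members and all lists were chosen with earlier results of these data known. Named pathway genes were, per list, up to 4 called genes with the largest change whose groups do not overlap, in IR against Ctrl or in Ab_IR or L_IR against IR. Scarb1, Nr1h3, Pnpla2, Lipc, Gpihbp1, Msr1, Lrp1 and Npc2 are named outside this rule. Genes like Lipg were the 6 with the smallest difference, without predicted and immunoglobulin genes. Replicate numbers did not pair libraries. Deviations of same-numbered libraries correlated at -0.268 to 0.224, over 0.1 in 4 of 18 pairs. Of 11 marker lists, those for plasma cells, B cells, erythroid cells, megakaryocytes and eosinophils or mast cells are given in the closing section. Alternatives were a pseudocount of 0.1, quantile normalization, median-ratio scaling, no filter, a filter at a mean of 10 FPKM, no trend, all 12 libraries in 1 fit, the replicate block, summed rows, the Nppa split as a term, no fold change threshold, and each library left out. Figures were drawn with matplotlib.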

Additional observations from a re-analysis of the deposited data

How the results depend on the processing

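Of the 6 genes tested in IR against Ctrl 1 was called, and 0 with the Nppa split as a term. Leaving out single libraries gave 0 to 1, with 0 without Ctrl replicate 1. In L_IR against Ctrl the same omissions gave 0 to 1 (0 without Ctrl replicate 1). In Ab_IR against Ctrl 0 were called. With the split as a term, which leaves Ctrl replicate 1 alone for Ctrl, the change of Apoe there was 1.12. With no fold change threshold the counts were 2 in IR and 1 in Ab_IR and 2 in L_IR against Ctrl, 4 in Ab_IR and 4 in L_IR against IR, and 0 between Ab_IR and L_IR, all without Abca1, which passed the filter only through L_IR. The pathway lists went from 5 to 11 called genes in IR against Ctrl with a pseudocount of 0.1 and to 3 with a mean of at least 10 FPKM. In Ab_IR against IR they went from 11 to 5 with that filter, and in L_IR against IR from 9 to 16 and to 4 under the same 2 settings. That filter tests fewer genes, and the smaller pseudocount widens fold changes of low genes. The log2 difference of Lipg moved with a pseudocount of 0.1 to 3.86 (IR against Ctrl), -4.26 (Ab_IR against IR) and -4.67 (L_IR against IR). The last was -4.24 with quantile normalization and -4.01 with the split as a term.

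Directions turned 24 times over all alternatives run. With the split as a term these were Lpl (-0.29 in IR against Ctrl, 0.70 and 0.87 in Ab_IR and L_IR against IR, 0.41 and 0.58 in Ab_IR and L_IR against Ctrl), Cd36 (0.41 and 0.32 against IR, 0.022 in Ab_IR against Ctrl), Lipa (-0.27 in L_IR against IR, -0.12 in L_IR against Ctrl), Fabp3 (0.22 and 0.52 against IR) and Pdk4 (0.046 in Ab_IR and 0.046 in L_IR against IR). Quantile normalization turned Cd36 in IR against Ctrl (0.038) and Lipa in L_IR against IR (-0.081). With single libraries left out, Lpl ranged from -0.29 (without Ctrl replicate 1) to 0.23 in IR against Ctrl, and from -0.47 to 0.058 (without Ctrl replicate 2, 0.053 without replicate 3) in L_IR against Ctrl. Lipa ranged from -0.0060 (without Ctrl replicate 3) to 0.15 in IR against Ctrl, from -0.015 (without IR replicate 2) to 0.052 in L_IR against IR, and from -0.12 to 0.035 (without Ctrl replicate 1) in Ab_IR against Ctrl. Cd36 ranged from -0.39 to 0.014 (without IR replicate 1) in IR against Ctrl, and from -0.028 (without L_IR replicate 3) to 0.17 in Ab_IR against L_IR. The causes were not tested. The replicate block left 1 of these 6 genes called in IR against Ctrl. It changed no call of the members in the 6 comparisons or of the named pathway genes that passed the adjusted p there. Passes at the adjusted p alone were lost under some alternatives, where the highest limma adjusted p was 0.127 for Abcg1 in IR against Ctrl, 0.107 for Plin2 in L_IR against Ctrl, 0.175 for Apoe in Ab_IR against Ctrl and 0.229 for Lpl in Ab_IR against IR (all 12 libraries in 1 fit). With the split as a term it was 0.295 for Cd36 in L_IR against IR, and 0.0961 and 0.22 for Plin2 in Ab_IR and L_IR against IR. With depth unknown, values near 1 FPKM or below (Abca1, Pparg, Lpl) have an unknown counting error.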

Other observations

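The remaining marker lists give the cell types that the libraries also held. The plasma cell list (10 of 10 genes measured) summed to 700 to 806 FPKM in Ctrl, 1099 to 1123 in IR, 1174 to 1260 in Ab_IR and 1582 to 1604 in L_IR. The B cell list (8 of 8) summed to 29.2 to 32.8, 24.4 to 25.0, 43.1 to 43.7 and 45.2 to 47.0 FPKM in the same order. The erythroid list (8 of 9) was lowest in IR, at 442 to 453 FPKM against 1313 to 3017 FPKM elsewhere. So were the megakaryocyte and platelet list (8 of 8), at 13.2 to 15.1 FPKM against 59.9 to 152 FPKM, and the eosinophil, mast cell and basophil list (9 of 9), at 575 to 581 FPKM against 3106 to 7205 FPKM. The adipocyte and stroma list (12 of 12) was lowest there too, at 8.50 to 8.96 FPKM in IR and 37.4 to 153 FPKM elsewhere, with its fat cell genes near 0 in every group. The HSC list (10 of 10) summed to 5.60 to 6.01 FPKM in IR and 9.52 to 15.4 FPKM elsewhere. The part of these cell types in the lipid genes was not tested.

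Lrp1, which encodes a large receptor for Apoe-rich particles, was listed at 6.23 to 6.96 FPKM in IR, 2.54 to 3.44 in Ctrl, 3.05 to 3.25 in Ab_IR and 4.32 to 4.64 in L_IR. Npc2, the lysosomal cholesterol carrier, was listed at 24.2 to 25.6 FPKM in IR and at 38.3 to 49.4 FPKM in the other groups. Both were picked after their values were seen and are given as levels without a test.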
